A study of Danio rerio with 9 samples.

Results

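Genes of the tumour necrosis factor (TNF) superfamily and of the NF-kB pathway were followed in laser-captured heart valve tissue of zebrafish (Danio rerio). Members were the protein-coding genes of the deposited table whose symbol named a TNF ligand, a TNF receptor, a TRAF adaptor, a Rel or NF-kB subunit, an IkB inhibitor or an IkB kinase. The name rule took 44 of the 21692 genes in the table, and 43 of these reached 10 in 3 or more of the 9 libraries, as did 17891 genes in all. The 44 genes comprised 10 ligands, 10 receptors, 8 TRAF adaptors, 2 TRAF3-interacting genes that share the name pattern, 5 Rel subunits, 6 IkB genes and 3 IkB kinases. The ligand gene tnfa was not analysed here. The receptor tnfrsf18 was the member left out by the filter.

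The samples were 3 libraries taken 48 h after ablation of valve cells, 3 taken 21 d after ablation and 3 from uninjured fish. Ablation was done with 2.5 mM metronidazole for 6 h, a prodrug that becomes toxic in cells carrying a bacterial nitroreductase, with the fish bathed 1 to a container without light. The source of each library was given as 2 hearts, so each value is taken to pool the valves of more than 1 animal. The labels give no strain, age, transgene or promoter, and do not say whether uninjured fish were bathed in the drug. Separate fish behind the libraries of a group are not stated either, and the p-values therefore measure only the spread between these libraries, which may be technical. The values are read counts per gene divided by a size factor of each library (normalised read counts). They are not divided by gene length, so levels are compared between libraries and not between genes.

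TNF ligands are made as membrane proteins or shed from the cell, and as trimers they bind receptors on target cells. Many of these receptors recruit TRAF adaptors, which lead to the IkB kinase complex. The kinase marks IkB inhibitors for destruction and so frees Rel dimers, which enter the nucleus and switch on genes of inflammation, survival and leukocyte recruitment, including genes of their own inhibitors. In a separate, non-canonical branch the precursor encoded by nfkb2 is processed and pairs with RelB. In mammalian bone and vessel wall, the receptor RANK (tnfrsf11a), its ligand RANKL (tnfsf11) and the soluble decoy osteoprotegerin (tnfrsf11b) control osteoclast formation and calcification.

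Column totals lay between 15383031 and 21616553. The first principal component, with 23.7% of the variance, separated the 48 h libraries from the other 6. Of 19 macrophage markers found in the table, 16 rose at 48 h and 0 fell (limma, adjusted p under 0.05), and their summed value was 15053 to 19590 at 48 h, 8460 to 11004 at 21 d and 5080 to 5468 in uninjured tissue. Neutrophil markers summed to between 9123 and 10134 at 48 h, 2302 and 4348 at 21 d, and 3199 and 5572 in uninjured tissue. Of 9 neutrophil markers tested, 4 rose at 48 h and 0 fell. At 48 h, srgn gave 5161, 5085 and 4711 of these sums and adam8a gave 3147, 2969 and 2167. The 12 T or NK lymphocyte markers were low, with sums of 162 to 296 at 48 h, 140 to 184 at 21 d and 37 to 90 in uninjured tissue. In that list cd8a and cd8b were at 0 in every 48 h and uninjured library, and nkl.1 gave 125, 132 and 202 of the sums at 48 h. The 6 B lymphocyte markers summed to 136 to 234, 129 to 202 and 19 to 119 in the order 48 h, 21 d, uninjured. Interstitial or fibroblast markers and endothelial markers were present. Of 11 interstitial or fibroblast markers, 1 rose and 8 fell at 48 h. They summed to between 73442 and 92368 at 48 h, 153062 and 174559 at 21 d, and 178020 and 221286 in uninjured tissue. Of 12 endothelial markers, 2 rose and 2 fell at 48 h. In the order 48 h, 21 d, uninjured they summed to between 37453 and 59592, 38717 and 40755, and 37523 and 45797. Heart-muscle markers were abundant as well, at 259736 to 357117, 581232 to 723192 and 593569 to 660141 in the same order. In such bulk samples, fewer cells of a type and less RNA per cell cannot be told apart. The part of these marker levels in the results on TNF and NF-kB genes was not tested.

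**Figure D1:**
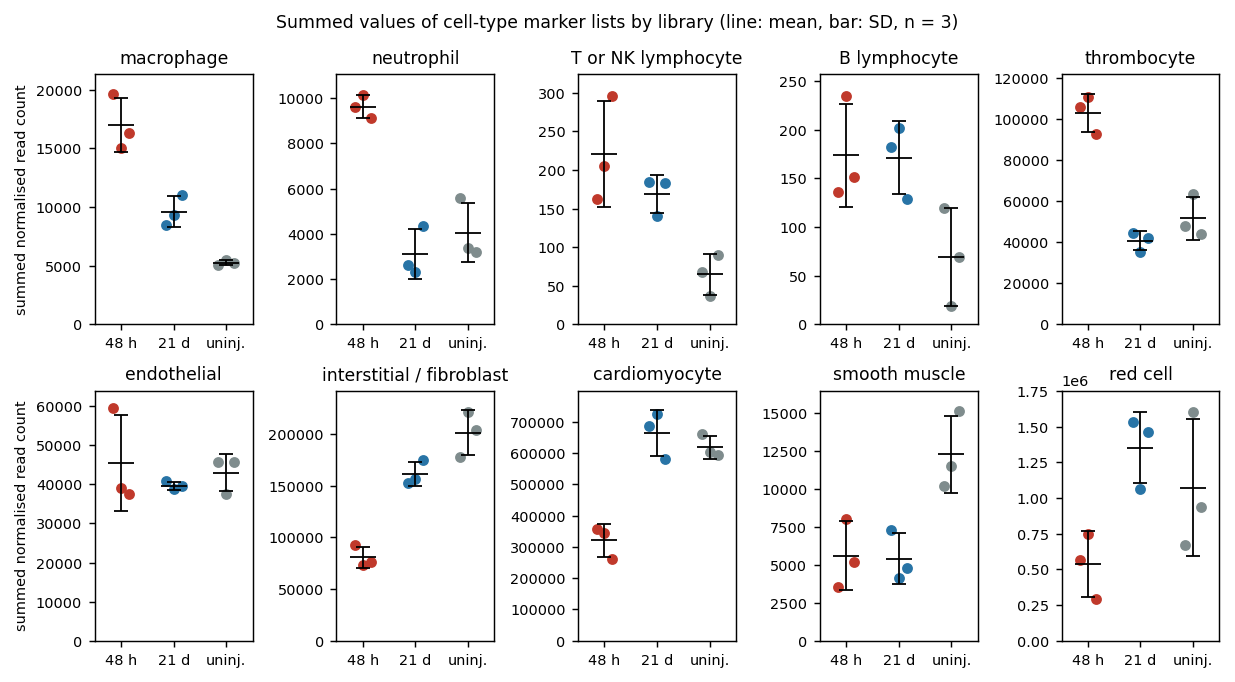
Summed normalised read counts of 10 cell-type marker lists (vertical axes) in each library at 48 h, at 21 d and in uninjured tissue (horizontal axis), with group means (lines) and SD (bars), n = 3. Macrophage markers summed to at least 15053 in the 48 h libraries and to at most 5468 in uninjured libraries, and heart-muscle markers to at most 357117 at 48 h and at least 593569 in uninjured tissue.

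At 48 h against uninjured tissue, 7 of the 43 members rose and 2 fell. The genes that rose were the decoy receptor tnfrsf11b, the receptors tnfrsf11a and tnfrsf9a, the ligand tnfsf18, the Rel subunits rel and nfkb2 and the kinase ikbke, and those that fell were the inhibitor nfkbiab and the adaptor traf5. Among all 17891 genes tested, 4.44% rose and 6.33% fell, so that 10.8% passed in either direction, against 9 members, or 20.9%. The members were chosen with earlier results of these data known, so such shares are a description and not an independent test. With equal column totals the counts were 8 and 2 for members, and 1345 and 652 for all genes instead of 794 and 1133. The members' median log2 fold change was 0.33, beside 0.01 over all genes. Libraries of both groups did not overlap for 13 members (30.2%), beside 27.2% of all genes. The ligand tnfsf18 passed the filter on low values only through the 48 h libraries in which it was high, and without it 6 members rose. The adaptor traf5 passed that filter only through 21 d and uninjured libraries. The share of 20.9% counts both genes. With a mean value of at least 50, where neither was tested, 6 members rose and 1 fell. The count of higher members was 3 without uninjured library 2, without uninjured library 3, without 48 h library 1 or with no mean-variance trend in the model, and 4 without 48 h library 2 or without 48 h library 3.

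At 21 d against uninjured tissue, rel rose, tnfrsf11a fell and the other 41 members did not pass. Over all genes 0.52% rose, 0.933% fell and 1.45% passed in either direction, against 4.65% of members. The median log2 fold change was -0.03 for members and 0.02 for all genes, and 12 members (27.9%) did not overlap between the groups, beside 17.9% of all genes. The count of higher members was 0 without any 1 of the 21 d or uninjured libraries, and that of lower members was 0 without uninjured library 1 or 21 d library 3. Compared directly with 48 h, 21 d tissue had 2 members higher (nfkbiab and traf5) and 5 lower (tnfrsf11a, tnfrsf11b, tnfrsf1a, nfkbiaa and tnfsf18), or 4 lower without tnfsf18. Of all genes, 5.48% were higher at 21 d and 4.4% lower, 9.88% in either direction against 16.3% of members. That share counts tnfsf18 and traf5, which passed the filter on low values only through groups in which they were high. With a mean value of at least 50, where neither was tested, 1 member was higher and 4 were lower. The median was -0.44 for members and 0.00 for all genes, and 17 members (39.5%) did not overlap, beside 27.3% of all genes. With equal column totals the split was 2 higher and 7 lower for members, and 607 and 1281 for all genes instead of 980 and 788. The higher count was 1 without 21 d library 1 or 2. Both comparisons with uninjured tissue share the uninjured libraries, and the comparison of both times shares libraries with each of them.

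**Figure D2:**
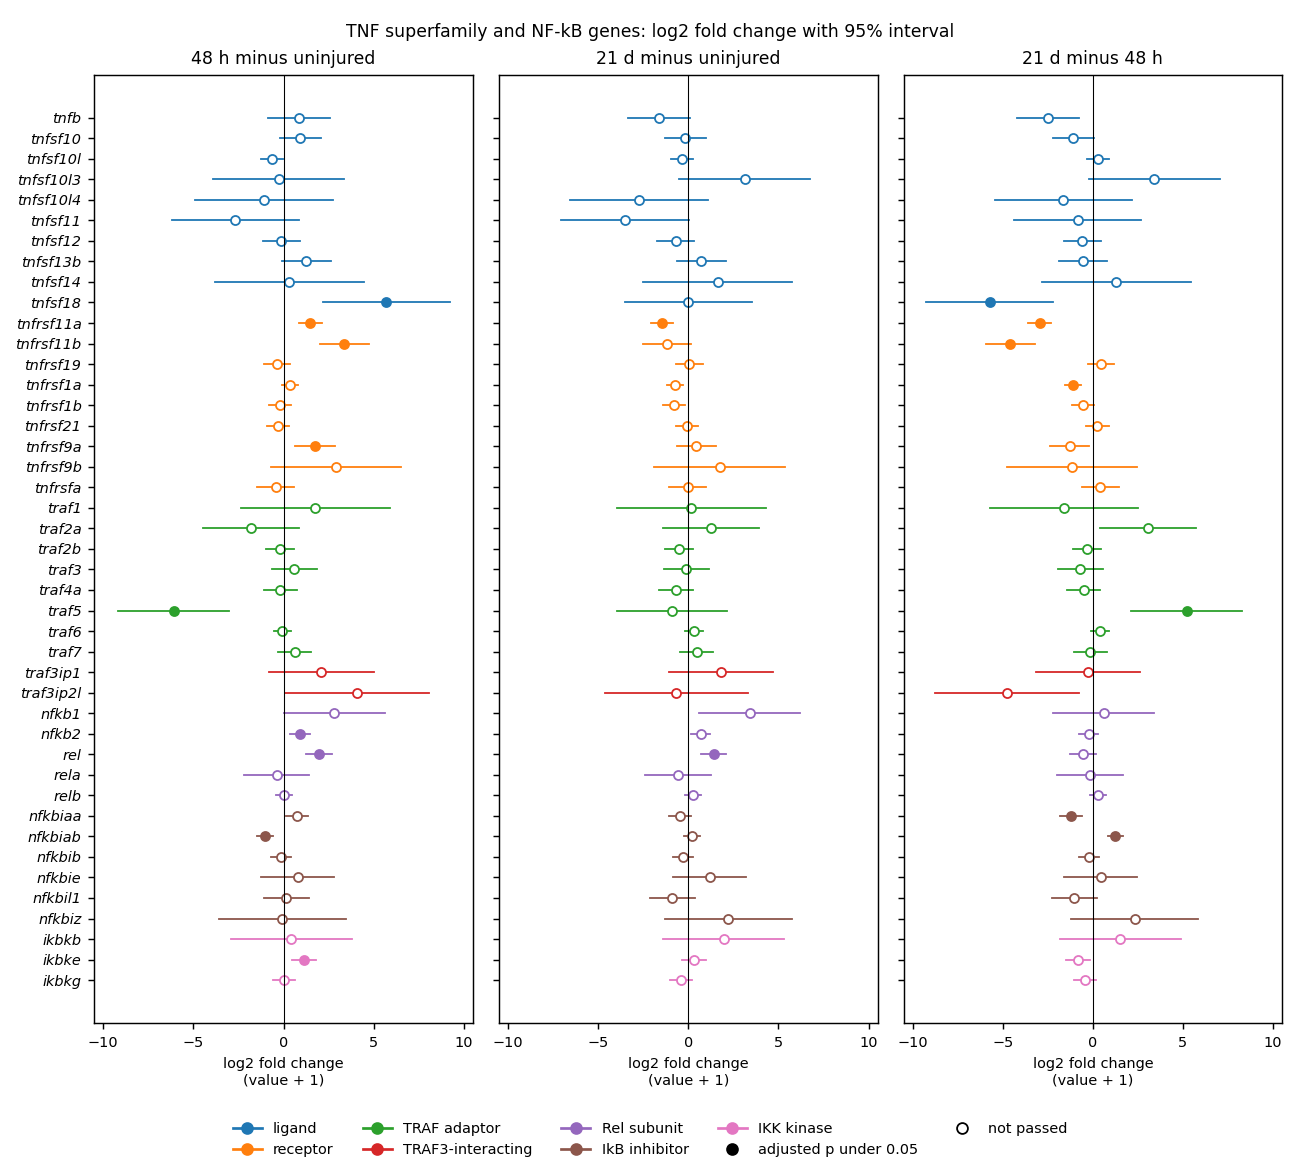
Log2 fold change (horizontal axes, on log2 of value + 1) of the 43 members, grouped by role (colour, vertical axis), for 48 h minus uninjured, 21 d minus uninjured and 21 d minus 48 h. Lines are 95% intervals from the model and filled points have a limma adjusted p under 0.05, 9, 2 and 7 of the 43 in the 3 comparisons. The filled receptor points lie right of 0 at 48 h and left of 0 at 21 d.

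The receptor genes of the RANK axis rose at 48 h and were lower again at 21 d. Osteoprotegerin, tnfrsf11b (ENSDARG00000098377), had 1142, 1355 and 1977 normalised read counts in the 48 h libraries, 28, 53 and 144 in the 21 d libraries and 300, 172 and 51 in the uninjured libraries. Every 48 h library was above every other library, while the 21 d and uninjured libraries overlapped. It rose 10.4-fold at 48 h (log2 fold change 3.38, SE 0.63, limma adjusted p = 0.00219) and was lower at 21 d than at 48 h (-4.57, SE 0.63, adjusted p = 1.8e-04). At 21 d against uninjured tissue the change was -1.19 (adjusted p = 0.487). The rise at 48 h did not pass with no trend (0.0656, over a range of 3.4e-04 to 0.0656 in 21 alternatives).

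The signalling receptor RANK, tnfrsf11a (ENSDARG00000087804), had 1139, 1163 and 1699 normalised read counts at 48 h, 184, 181 and 144 at 21 d and 563, 448 and 400 in uninjured tissue. The 3 groups were fully apart, with 48 h highest and 21 d lowest. It rose 2.81-fold at 48 h (log2 fold change 1.49, SE 0.30, limma adjusted p = 0.00163) and fell by 1.46 at 21 d, both against uninjured tissue (SE 0.30, adjusted p = 0.0119). Between the times it was lower at 21 d by 2.95 (value -2.95, SE 0.30, adjusted p = 3.5e-07). The fall at 21 d did not pass without uninjured library 1 (adjusted p = 0.0741), without 21 d library 3 (0.0621) or with no trend (0.159), and its adjusted p ran from 0.00732 to 0.159 over 21 alternatives.

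The ligand of both, tnfsf11 (ENSDARG00000068141), was near the lower limit of the table, with 24, 0 and 6 normalised read counts at 48 h, 5, 0 and 4 at 21 d and 77, 47 and 11 in uninjured tissue. Its 21 d libraries were all below the uninjured ones, but neither change passed (adjusted p = 0.378 at 48 h and 0.425 at 21 d, limma). Within each library, the ratio of tnfrsf11b to tnfrsf11a, uncorrected for length, was 1.11 ± 0.0934 at 48 h, 0.482 ± 0.454 at 21 d and 0.348 ± 0.205 in uninjured tissue (SD, n = 3). At 21 d it was 1 in library 3 and 0.152 and 0.293 in the other 2 libraries, so this group was not uniform.

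**Figure D3:**
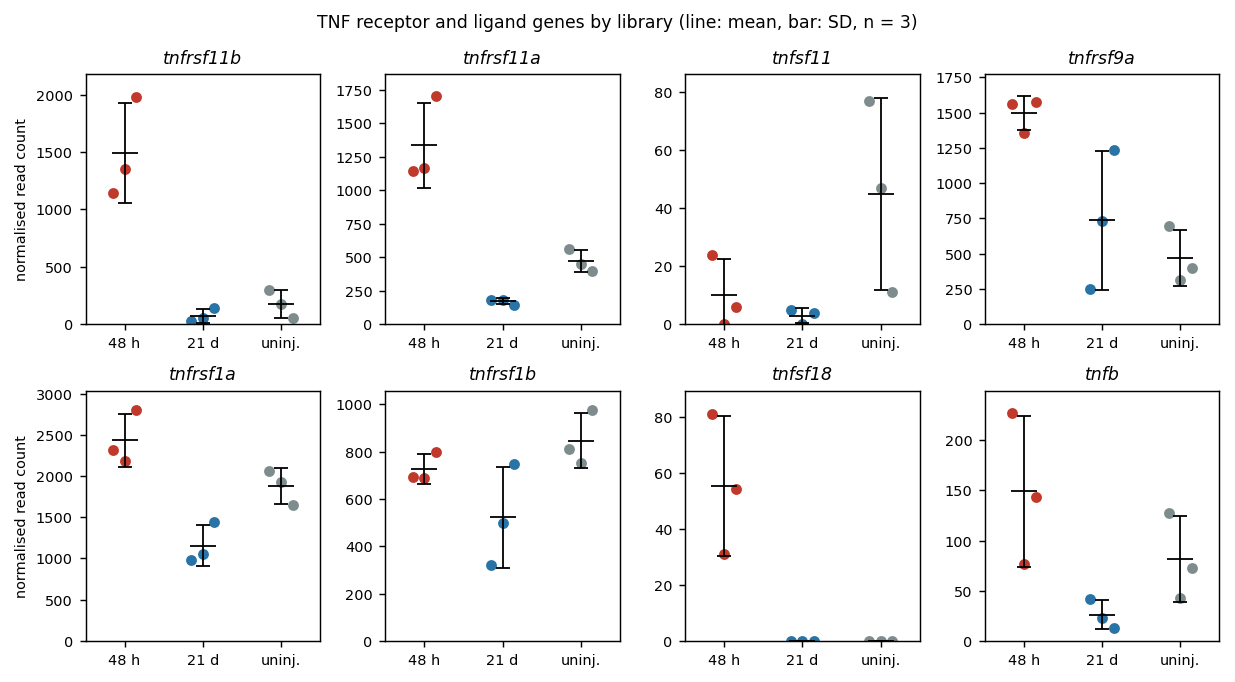
Normalised read counts (vertical axes) of 5 receptor genes and 3 ligand genes in each library at 48 h, at 21 d and in uninjured tissue, with group means (lines) and SD (bars), n = 3. The 48 h libraries of tnfrsf11b lie between 1142 and 1977 and all others at or below 300, and tnfsf18 is at 0 outside the 48 h libraries.

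Among the other receptors, tnfrsf9a rose at 48 h and tnfrsf1a was lower at 21 d than at 48 h. The gene tnfrsf9a (ENSDARG00000060498), whose mammalian counterpart is a co-stimulatory receptor of activated T and NK cells, had 1561, 1357 and 1577 normalised read counts at 48 h, 251, 729 and 1236 at 21 d and 694, 315 and 397 in uninjured tissue. The 48 h libraries were close together and above all others, whereas the 21 d libraries spread from below to above the uninjured range. It rose 3.37-fold at 48 h (log2 fold change 1.75, SE 0.50, limma adjusted p = 0.0455), and the difference of -1.29 between 21 d and 48 h did not pass (adjusted p = 0.143) but did without 21 d library 3 (-1.80, adjusted p = 0.00891). The rise at 48 h passed in 11 of 21 alternatives, with adjusted p from 4.1e-04 to 0.158. It did not pass without uninjured library 2 (0.145) or 3 (0.124), 48 h library 1 (0.139), 2 (0.107) or 3 (0.112), or 21 d library 2 (0.0645), nor with a replicate block (0.0548), array weights (0.0677), no filter (0.0668) or no trend (0.158). The summed T and NK markers were 162 to 296 at 48 h and 37 to 90 in uninjured tissue. That difference lay largely in nkl.1, at 125, 132 and 202 at 48 h and at most 3 in any other library. Of 8 T and NK markers tested, 1 rose at 48 h and 0 fell. Their part in the values of tnfrsf9a was not tested.

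The main receptor for soluble TNF, tnfrsf1a (ENSDARG00000018569), which carries a death domain, had 2320, 2179 and 2798 normalised read counts at 48 h, 977, 1054 and 1436 at 21 d and 2064, 1927 and 1646 in uninjured tissue. The groups did not overlap, with 48 h highest and 21 d lowest. The difference between 21 d and 48 h was -1.08 on the log2 scale (SE 0.21, limma adjusted p = 0.00137), and it did not pass with no trend (0.0779, over a range of 3.0e-04 to 0.0779 in 21 alternatives). Against uninjured tissue, the changes of 0.37 at 48 h and -0.71 at 21 d did not pass (adjusted p = 0.321 and 0.112). The second TNF receptor, tnfrsf1b (ENSDARG00000070165), had 693, 688 and 798 at 48 h, 321, 500 and 747 at 21 d and 813, 753 and 975 in uninjured tissue. Its 21 d libraries all lay below the uninjured ones without passing (-0.77, adjusted p = 0.252).

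The death receptor 6 gene tnfrsf21, the receptor tnfrsf19, the fish receptor tnfrsfa and the second copy tnfrsf9b did not pass in any comparison. Their log2 fold changes at 48 h against uninjured tissue were -0.31, -0.38, -0.44 and 2.91. The last came from 8, 35 and 12 normalised read counts at 48 h beside 0, 4 and 1 in uninjured tissue, with an SE of 1.75. The receptor for the tnfsf18 ligand in mammals, tnfrsf18, had 20, 0 and 18 at 48 h, 0, 3 and 0 at 21 d and 0 in all uninjured libraries. It was above 0 in more of the 48 h libraries, but 2 libraries at 10 or more were too few for the test, while tnfsf18 and traf1, just inside that limit, had 3.

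Of the 10 ligands, 1 rose and 0 fell at 48 h (limma), beside 10.8% of all genes passing in either direction. An unadjusted p under 0.05 at 48 h was found for 2 ligands, tnfsf18 and tnfsf10l (lower), beside 4142 of all 17891 genes. Of these, tnfsf18 is a description only, as given below. At 21 d against uninjured tissue 0 ligands passed (0 unadjusted), beside 1.45% of all genes. The ligand that rose was tnfsf18 (ENSDARG00000111698), a co-stimulator of T cells in mammals. It had 81, 31 and 54 normalised read counts at 48 h and was listed at 0 in all 6 other libraries. It was thus found in every 48 h library and in none of the others, and no fold is given against groups at 0. Only those 3 libraries took it past the filter on low values, so its values are a description and its p-values are not given as support. Its calls did not pass when any 1 of the libraries at 0 in the groups compared was left out.

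The TNF gene tnfb (ENSDARG00000013598) had 227, 77 and 143 normalised read counts at 48 h, 42, 23 and 13 at 21 d and 128, 43 and 73 in uninjured tissue. The 21 d libraries lay below all others, and the 48 h and uninjured libraries overlapped. Its log2 difference of -2.49 between 21 d and 48 h did not pass (SE 0.83, limma adjusted p = 0.0598), but passed with a pseudocount of 5 (0.0452), equal column totals (0.0394) and array weights (0.0418), in a range of 0.0394 to 0.218 over 21 alternatives. The changes against uninjured tissue were 0.87 at 48 h and -1.62 at 21 d (adjusted p = 0.591 and 0.457).

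The death ligand TRAIL gene tnfsf10 (ENSDARG00000057241) had 301, 353 and 97 normalised read counts at 48 h, 116, 65 and 142 at 21 d and 133, 96 and 115 in uninjured tissue. Its 48 h libraries 1 and 2 were high and library 3 was within the uninjured range, and the change did not pass (0.93, limma adjusted p = 0.338). The B cell survival factor BAFF, tnfsf13b (ENSDARG00000012945), had 224, 207 and 117 at 48 h, 224, 39 and 198 at 21 d and 110, 46 and 75 in uninjured tissue. All 48 h libraries were above the uninjured ones, with a log2 difference of 1.27 (adjusted p = 0.248, not passing). The TWEAK gene tnfsf12 (ENSDARG00000069376) had 272, 138 and 194 at 48 h, 258, 79 and 105 at 21 d and 190, 209 and 236 in uninjured tissue, which overlapped throughout. The TRAIL-like genes tnfsf10l, tnfsf10l3 and tnfsf10l4 and the LIGHT gene tnfsf14 did not pass either, with changes at 48 h of -0.64, -0.26, -1.08 and 0.33. Of these, tnfsf10l3 had 39, 28 and 20 at 21 d against 8, 0 and 3 in uninjured tissue, which did not overlap (adjusted p = 0.512). The values of tnfsf14 were 29, 0 and 0 at 48 h, 31, 0 and 13 at 21 d and 0, 14 and 0 in uninjured tissue. Those of tnfsf10l were 580, 770 and 690 at 48 h, 1084, 603 and 873 at 21 d and 1462, 678 and 1168 in uninjured tissue.

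The adaptor traf5 (ENSDARG00000017240), which joins several TNF receptors to NF-kB, was listed at 0 in all 3 libraries at 48 h, with 29, 74 and 21 normalised read counts at 21 d and 44, 107 and 66 in uninjured tissue. It was thus found in every 21 d and uninjured library and in none of the 48 h libraries, and no fold is given against a group at 0. Its 6 libraries at 10 or more were all 21 d or uninjured ones, and only these took it past the filter on low values. Its values are therefore a description, and its p-values are not given as support. Its call between the times did not pass without 21 d library 1 or 2 or with only those 2 groups in the fit.

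The other 7 TRAF adaptors did not pass in any comparison. The gene traf6 (ENSDARG00000028058), which also serves interleukin-1 and Toll-like receptors, had 705, 984 and 832 normalised read counts at 48 h, 1103, 1156 and 1004 at 21 d and 965, 905 and 748 in uninjured tissue. Its 21 d libraries were above all others, with a log2 change of 0.32 against uninjured tissue (SE 0.24, limma adjusted p = 0.645). The gene traf2a (ENSDARG00000030173) had 74, 0 and 45 at 48 h, 97, 184 and 110 at 21 d and 53, 21 and 120 in uninjured tissue, and its difference of 3.06 between 21 d and 48 h (adjusted p = 0.153) passed without 48 h library 1 (4.22, adjusted p = 0.0498). Its copy traf2b had 199, 336 and 314 at 48 h, 179, 273 and 222 at 21 d and 362, 345 and 247 in uninjured tissue. The log2 changes of traf1, traf3, traf4a and traf7 at 48 h were 1.77, 0.60, -0.18 and 0.63, within their spread. Neither of the TRAF3-interacting genes passed, although traf3ip2l was at 48, 129 and 104 at 48 h, 0, 34 and 0 at 21 d and 136, 0 and 0 in uninjured tissue.

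Of the 5 Rel subunits, rel and nfkb2 rose at 48 h, and rel was also higher than in uninjured tissue at 21 d. Among all genes, 4.44% rose at 48 h and 0.52% at 21 d. The gene rel (ENSDARG00000055276), which encodes c-Rel, the subunit most tied to lymphoid and myeloid cells in mammals, had 520, 758 and 501 normalised read counts at 48 h, 411, 352 and 427 at 21 d and 142, 179 and 127 in uninjured tissue. The groups were fully apart in that order. It rose 3.92-fold at 48 h (log2 fold change 1.97, SE 0.34, limma adjusted p = 3.2e-04, under 0.05 in 21 of 21 alternatives) and 2.66-fold at 21 d (1.41, SE 0.34, adjusted p = 0.0365). The call at 21 d did not pass when any of the 6 libraries compared was left out (adjusted p = 0.09, 0.0575 and 0.102 without uninjured library 1, 2 and 3, and 0.125, 0.084 and 0.136 without 21 d library 1, 2 and 3) or with no trend (0.159), in a range of 0.0165 to 0.159. Between 21 d and 48 h the change was -0.56 (adjusted p = 0.356). Summed macrophage markers followed the same order of groups, but single ones did not all do so. At 21 d against 48 h, 11 of 19 were lower and 3 higher (limma, adjusted p under 0.05). The T or NK and B lymphocyte sums were also lowest in uninjured tissue. The part of any of these markers in the values of rel was not tested.

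The precursor gene of the non-canonical branch, nfkb2 (ENSDARG00000038687), had 916, 730 and 805 normalised read counts at 48 h, 758, 603 and 726 at 21 d and 459, 394 and 438 in uninjured tissue. Both injured groups lay wholly above uninjured tissue and overlapped each other. It rose 1.89-fold at 48 h (log2 fold change 0.92, SE 0.26, limma adjusted p = 0.0241), and the change of 0.69 at 21 d did not pass (adjusted p = 0.256). The call at 48 h did not pass without uninjured library 2 (0.0769) or 3 (0.0535), without 48 h library 1 (0.0774) or 3 (0.06) or with no trend (0.0792), in a range of 0.00509 to 0.0792.

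Its partner relb (ENSDARG00000086173) did not pass in any comparison, with 1085, 1158 and 1024 normalised read counts at 48 h, 1277, 1409 and 1250 at 21 d and 1010, 1092 and 1118 in uninjured tissue. The change at 48 h was 0.02 with a 95% interval of -0.42 to 0.47, so a change of the size seen for nfkb2 lay outside that interval (limma adjusted p = 0.972). The 21 d libraries were all above the others, by 0.29 against uninjured tissue (adjusted p = 0.648, not passing). The canonical subunit rela (ENSDARG00000098696) had 190, 20 and 101 at 48 h, 195, 24 and 58 at 21 d and 136, 45 and 146 in uninjured tissue, a spread within each group wider than any difference between them. The gene nfkb1 (ENSDARG00000105261) had 11, 83 and 84 at 48 h, 176, 42 and 39 at 21 d and 1, 6 and 17 in uninjured tissue, with changes of 2.80 and 3.41 that did not pass (SE 1.35, adjusted p = 0.215 and 0.281). Its 21 d libraries lay above the uninjured ones.

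Of the duplicated genes of the inhibitor IkB-alpha, nfkbiab fell at 48 h, and nfkbiaa had its highest libraries there without passing against uninjured tissue. The copy nfkbiab (ENSDARG00000007693) had 1254, 1867 and 1481 normalised read counts at 48 h, 3991, 3678 and 3189 at 21 d and 3850, 2797 and 2777 in uninjured tissue. Its 48 h libraries lay below all others, and it fell by 1.04 on the log2 scale against uninjured tissue (SE 0.21, limma adjusted p = 0.00138) and was 2.38-fold higher at 21 d than at 48 h (adjusted p = 2.1e-04). With no trend these calls did not pass (0.0881 and 0.0598), in ranges of 4.4e-04 to 0.0881 and 2.4e-05 to 0.0598 over 21 alternatives.

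The copy nfkbiaa (ENSDARG00000005481) had 768, 888 and 890 normalised read counts at 48 h, 353, 506 and 279 at 21 d and 457, 489 and 574 in uninjured tissue. Its 48 h libraries lay above all others. It was lower at 21 d than at 48 h (log2 difference -1.20, SE 0.29, limma adjusted p = 0.0086), which did not pass without 21 d library 3 (0.055) or with no trend (0.0771), in a range of 0.00223 to 0.0771. The change of 0.75 at 48 h against uninjured tissue did not pass (adjusted p = 0.109) except with equal column totals (1.03, adjusted p = 0.0269, in a range of 0.0269 to 0.248). Within each library, the ratio of nfkbiab to nfkbiaa, uncorrected for length, was 1.63, 2.1 and 1.66 at 48 h, 11.3, 7.27 and 11.4 at 21 d and 8.42, 5.72 and 4.84 in uninjured tissue. The ratio was thus lower in each 48 h library than in any other. Reads that match both copies cannot be assigned with certainty.

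The other IkB genes, nfkbib, nfkbie, nfkbiz and nfkbil1, did not pass, with log2 changes at 48 h of -0.12, 0.78, -0.08 and 0.15. Among the kinases, ikbke (ENSDARG00000070606), an IkB kinase relative that in mammals is induced by inflammation and acts in interferon signalling, rose 2.18-fold at 48 h (log2 fold change 1.12, SE 0.32, limma adjusted p = 0.0255). It had 748, 704 and 522 normalised read counts at 48 h, 309, 496 and 331 at 21 d and 381, 263 and 265 in uninjured tissue, with the 48 h libraries above all others. The call did not pass without uninjured library 2 (0.0855) or 3 (0.0834), without 48 h library 1 (0.0855) or 2 (0.0807) or with no trend (0.0998), in a range of 0.00614 to 0.0998. Its difference of -0.81 between 21 d and 48 h (adjusted p = 0.125) passed with equal column totals only (0.0394, in a range of 0.0394 to 0.311).

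The subunits of the classical kinase complex did not pass. Its scaffold ikbkg (ENSDARG00000017037) had 516, 644 and 476 normalised read counts at 48 h, 360, 368 and 479 at 21 d and 484, 655 and 466 in uninjured tissue. The change at 48 h was 0.03 with a 95% interval of -0.58 to 0.64 (limma adjusted p = 0.966). The catalytic subunit ikbkb (ENSDARG00000079123) had 60, 1 and 54 at 48 h, 72, 29 and 71 at 21 d and 41, 0 and 63 in uninjured tissue. Its libraries ranged widely within groups, and the 95% interval of the log2 change at 48 h ran from -2.93 to 3.81.

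**Figure D4:**
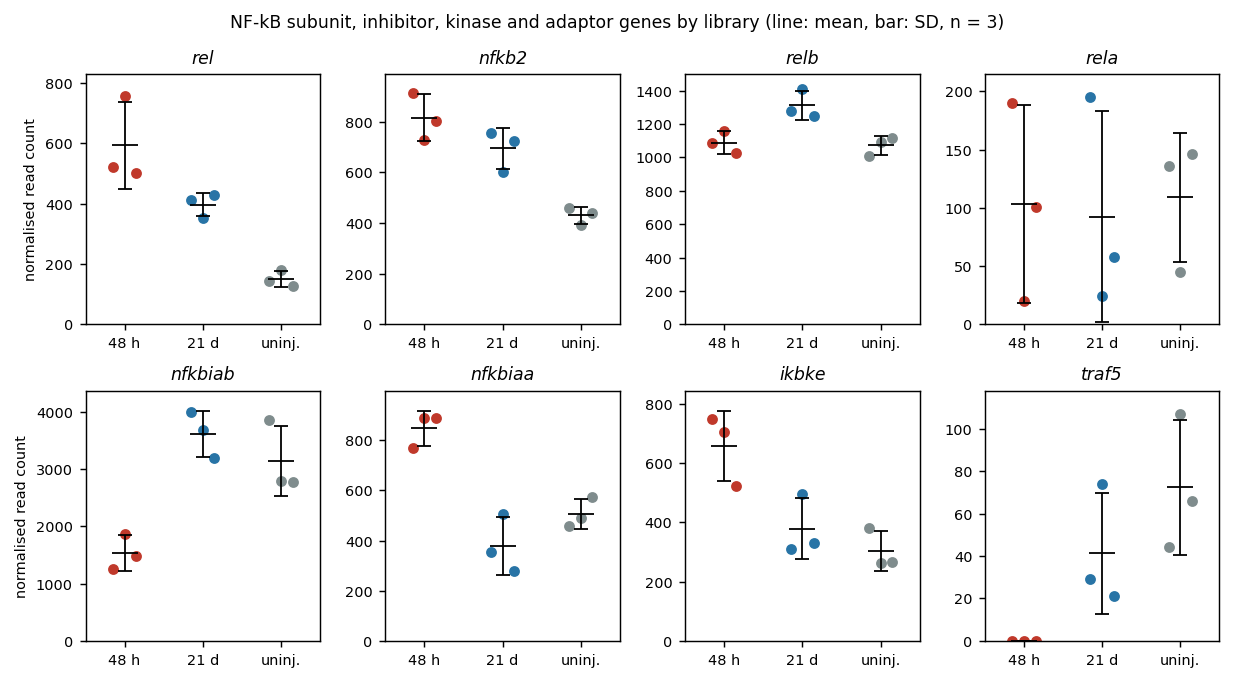
Normalised read counts (vertical axes) of 4 Rel subunit genes, 2 IkB inhibitor genes, the kinase gene ikbke and the adaptor gene traf5 in each library at 48 h, at 21 d and in uninjured tissue, with group means (lines) and SD (bars), n = 3. The copy nfkbiab lies at or below 1867 at 48 h and at or above 2777 elsewhere, whereas nfkbiaa lies at or above 768 at 48 h and at or below 574 elsewhere.

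Other genes of the pathway, whose symbols the name rule did not match, were read from a list of 72 symbols of receptors, ligands, death-domain adaptors, ubiquitin enzymes and kinases. Of these, 63 matched the table and 60 rows were tested. At 48 h, 1 rose and 3 fell, together 6.67% of the list, below the 10.8% of all genes, and the list's median was 0.06. With equal column totals 3 rose and 1 fell, so the direction of this split depended on the scaling. In the main model the gene that rose was adam17a, the sheddase that frees TNF from the membrane. It had 2429, 1972 and 1676 normalised read counts at 48 h, 1455, 1221 and 1585 at 21 d and 1257, 1176 and 1245 in uninjured tissue. All its 48 h libraries were above all others (log2 fold change 0.71, SE 0.21, limma adjusted p = 0.0336). Its call did not pass without uninjured library 1 (0.0693), 2 (0.0978) or 3 (0.0734), without 48 h library 1 (0.134) or 2 (0.0728) or with no trend (0.171), in a range of 0.00453 to 0.171. The copy adam17b had 524, 213 and 340 at 48 h and 483, 381 and 644 in uninjured tissue. Its change of -0.55 at 48 h went the other way and did not pass (limma adjusted p = 0.384).

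The genes of that list that fell were the caspase inhibitor xiap, the p38 kinase mapk14b and the JNK kinase mapk8a. The gene xiap had 665, 473 and 732 normalised read counts at 48 h, 1989, 1705 and 2288 at 21 d and 1732, 1360 and 1218 in uninjured tissue. The 48 h libraries were well below all others (-1.21, SE 0.24, limma adjusted p = 0.00121, but 0.0646 with no trend, the highest of 4.9e-04 to 0.0646 over 21 alternatives), and 21 d tissue was above 48 h tissue by 1.69 (adjusted p = 3.3e-05). The gene mapk14b had 920, 787 and 897 at 48 h, 1700, 1711 and 1848 at 21 d and 1538, 1974 and 1270 in uninjured tissue. It fell by 0.86 at 48 h (adjusted p = 0.0123) and was 1.01 higher at 21 d than at 48 h (adjusted p = 0.00337). The fall at 48 h did not pass with equal column totals (0.102), with no trend (0.115) or without uninjured library 2 (0.0892), in a range of 0.00964 to 0.115. The difference between the times did not pass with no trend (0.0836, in a range of 0.00253 to 0.0836). The other p38 copy, mapk14a, had 489, 376 and 486 at 48 h and 400, 291 and 432 in uninjured tissue. Its change of 0.28 at 48 h did not pass (limma adjusted p = 0.677).

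The gene mapk8a had 142, 66 and 62 normalised read counts at 48 h, 172, 139 and 171 at 21 d and 340, 235 and 277 in uninjured tissue. Every 48 h library was below every uninjured one, and the 48 h and 21 d libraries overlapped. Its fall of 1.74 (value -1.74, limma adjusted p = 0.0199) did not pass with equal column totals (0.0576), without uninjured library 1 (0.086) or 3 (0.0615) or without 48 h library 2 (0.0576) or 3 (0.0744), in a range of 0.00761 to 0.086. At 21 d against uninjured tissue 0 of the list passed (limma, 1 with an unadjusted p under 0.05), beside 1.45% of all genes. The smallest adjusted p were 0.325 for ngfra (log2 change 0.70), 0.44 for xiap and 0.465 for sharpin. Between 21 d and 48 h, 5.0% of the list passed, below the 9.88% of all genes. In that comparison xiap, mapk14b and the JNK kinase mapk8b were higher and 0 were lower. The last, at 1.12 (adjusted p = 0.0129), did not pass with equal column totals (0.0633), with no trend (0.0961) or without 21 d library 2 (0.096), in a range of 0.0104 to 0.0961.

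Genes commonly described as responsive to NF-kB were read from a list of 65 symbols, of which 58 matched. Leaving out the 10 rows that the name rule also takes, 45 were tested. At 48 h, 12 of these rose and 5 fell, together 37.8% of them beside 10.8% of all genes, with a median log2 fold change of 0.97. At 21 d against uninjured tissue 0 rose and 1 fell (2.22%, beside 1.45% of all genes), with a median of -0.14. Between 21 d and 48 h, 3 were higher and 14 lower (37.8%, beside 9.88%), with a median of -1.22. The list was chosen with earlier results of these data known, so the shares of its genes are a description and not an independent test. Several of these genes are also expressed by macrophages or neutrophils or answer to other pathways, and mmp9 is itself 1 of the neutrophil markers. The part of the macrophage and neutrophil marker levels given above was not tested. The 5 that fell at 48 h were 3 without uninjured library 1 or 2 or without 48 h library 1 or 2, and 3 with equal column totals or quantile normalisation.

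The leukocyte adhesion gene sele, an endothelial selectin, had 4421, 5545 and 4539 normalised read counts at 48 h, 1064, 1179 and 1296 at 21 d and 733, 785 and 646 in uninjured tissue. The groups were fully apart. It rose 6.68-fold at 48 h (log2 fold change 2.74, SE 0.21, limma adjusted p = 3.7e-09) and was lower at 21 d than at 48 h (-2.03, adjusted p = 3.3e-07). At 21 d against uninjured tissue the change of 0.71 did not pass (adjusted p = 0.0988).

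The gene bcl3, an atypical IkB that binds the products of nfkb1 and nfkb2, had 366, 643 and 815 normalised read counts at 48 h, 112, 167 and 42 at 21 d and 60, 36 and 61 in uninjured tissue. It rose at 48 h with a log2 fold change of 3.48 (SE 0.56, limma adjusted p = 1.3e-04), and the 21 d and uninjured libraries overlapped. The interferon regulatory factor irf1b (ENSDARG00000043249) had 1100, 806 and 1086 at 48 h, 129, 252 and 117 at 21 d and 387, 317 and 185 in uninjured tissue. It rose by 1.80 at 48 h (adjusted p = 0.00212, but 0.0616 with no trend, the highest of 6.2e-04 to 0.0616 over 21 alternatives) and was lower by 2.65 at 21 d than at 48 h (value -2.65, adjusted p = 3.3e-05). A further row with the symbol irf1b (ENSDARG00000110357) did not pass at 48 h (0.16, adjusted p = 0.848).

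The survival gene bcl2l1 went the other way, with 1704, 1254 and 1247 normalised read counts at 48 h, 4716, 4021 and 4280 at 21 d and 3777, 4820 and 3460 in uninjured tissue. It fell by 1.52 at 48 h on the log2 scale (SE 0.20, limma adjusted p = 8.8e-06) and was 1.64 higher at 21 d than at 48 h (adjusted p = 3.7e-06). The cyclooxygenase gene ptgs2a had 202, 178 and 486 at 48 h, 38, 0 and 0 at 21 d and 64, 164 and 105 in uninjured tissue. The 21 d libraries were below all others, and ptgs2a fell at 21 d against uninjured tissue (-4.94, SE 1.21, adjusted p = 0.0381). That call held in 10 of 21 alternatives, with adjusted p from 0.00302 to 0.337. It did not pass without uninjured library 1 (0.079), 2 (0.189) or 3 (0.117), 48 h library 3 (0.073), 21 d library 2 (0.169) or 3 (0.148), nor with a replicate block (0.0546), a mean value of at least 50 (0.0661), no robust step (0.0696), only the groups compared (0.12) or no trend (0.337). The size of the ptgs2a fall depends on the added 1, because 21 d libraries 2 and 3 were at 0. The copy ptgs2b had 338, 298 and 197 at 21 d and 208, 339 and 443 in uninjured tissue. Its change at 21 d did not pass (-0.22, limma adjusted p = 0.889).

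The adhesion gene vcam1b had 1591, 1770 and 2144 normalised read counts at 48 h, 1956, 2268 and 1303 at 21 d and 3067, 4130 and 2555 in uninjured tissue. Both injured groups lay below the uninjured libraries. It fell by 0.81 at 48 h (SE 0.23, limma adjusted p = 0.0247), and the difference of -0.83 at 21 d did not pass (adjusted p = 0.0788) except with no filter (0.0464) or only the groups compared (0.043), in a range of 0.043 to 0.497. The call at 48 h passed in 14 of 21 alternatives (adjusted p from 0.0149 to 0.219) and did not without uninjured library 1 (0.0549) or 2 (0.152), without 48 h library 1 (0.0774) or 2 (0.0669), or with equal column totals (0.155), quantile normalisation (0.115) or no trend (0.219). The inhibitor of NF-kB signalling tnfaip3, a classical target, had a log2 change of -0.11 at 48 h that did not pass (SE 0.54, adjusted p = 0.937).

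**Figure D5:**
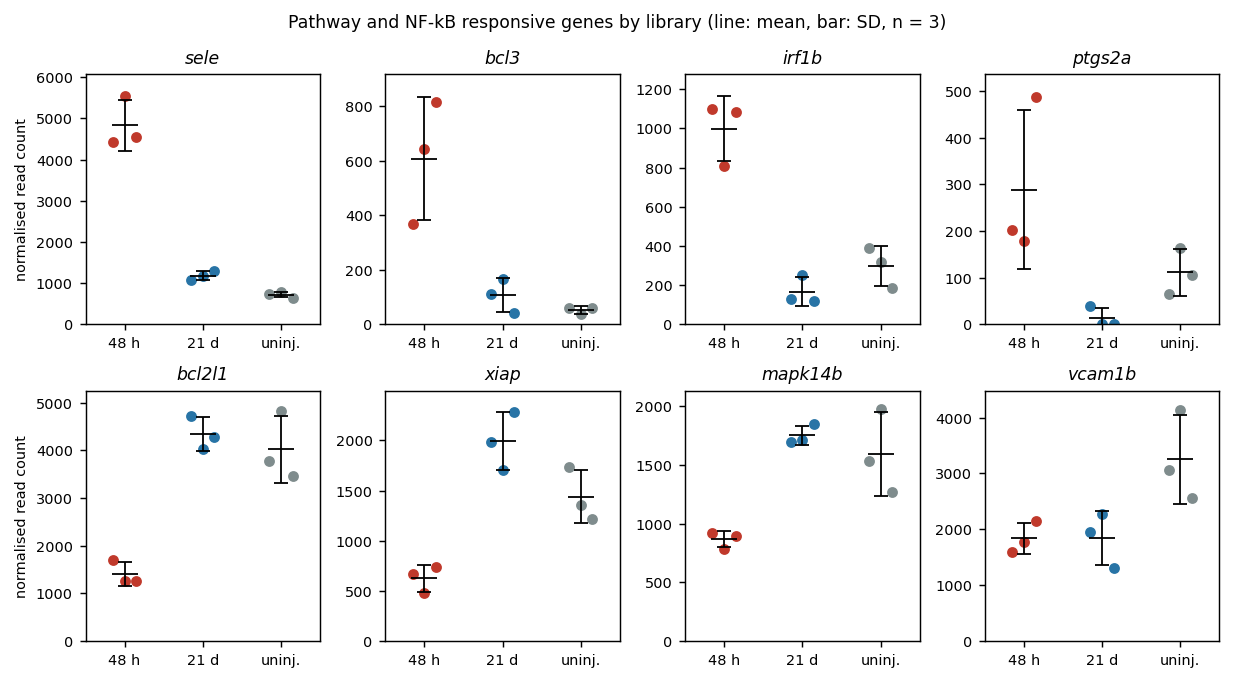
Normalised read counts (vertical axes) of 8 genes of the pathway and NF-kB responsive lists in each library at 48 h, at 21 d and in uninjured tissue, with group means (lines) and SD (bars), n = 3. The 48 h libraries of sele lie at or above 4421 and all others at or below 1296, whereas those of bcl2l1 lie at or below 1704 and all others at or above 3460.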

How the data were processed

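Per the labels' protocols, 20 ng of RNA from laser microdissection went through polyA enrichment and a directional library kit. The submitters' processing notes name FastQC 0.11.8, Trimmomatic 0.33, STAR 2.6.0c, featureCounts 1.6.0 and DESeq2 1.18.1 on danRer11 (GRCz11). The deposited values are a normalised signal, read counts divided by size factors and rounded by the authors, not raw counts, as read from the values: median-of-ratios factors differed by at most 0.11% over 13019 genes while totals differed. Rounding hides the reads behind low values, so no count model was fitted. It is not given in the sources used here whether molecular indexes removed duplicates or whether counting used strand.

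Genes that reached 10 in fewer than 3 of the 9 libraries were left out. The log2(value + 1) of the rest entered 1 limma model (limma 3.58.1, R 4.3.3) of all 3 groups, whose empirical Bayes step was robust and followed the mean-variance trend, on 6 residual degrees of freedom. Tests were two-sided, with Benjamini-Hochberg adjustment over 17891 genes and a threshold of 0.05. Fold changes are differences between group means of log2(value + 1), so those of low genes depend on the added 1. Libraries at 0 can make them larger than the means differ. For traf3ip2l the fitted change at 48 h was 17.0-fold, beside means of 93.7 at 48 h and 45.3 in uninjured tissue. Members that passed in any comparison and a fixed set of others are given by library, as are the 3 smallest adjusted p of each list and comparison. The members and lists were chosen with earlier results of these data known. The genes tnfaip3, adam17a, adam17b, mapk14a and ptgs2b were named after their values were seen. Marker lists covered macrophages, neutrophils, lymphocytes, thrombocytes, endothelium, interstitial cells, heart and smooth muscle and red cells. Thrombocyte sums were 92981 to 110830 at 48 h, 35451 to 44423 at 21 d and 43791 to 63524 in uninjured tissue. Most of these sums came from fn1b, with 101381, 104151 and 87220 at 48 h and 43081, 53913 and 37421 in uninjured tissue. The marker gp1bb had 2256, 3349 and 3178 at 48 h and 3715, 7552 and 4412 in uninjured tissue. Of 7 thrombocyte markers tested, 2 rose and 1 fell at 48 h. In the order 48 h, 21 d, uninjured, smooth-muscle sums were 3544 to 8051, 4133 to 7293 and 10182 to 15107. Red-cell sums were 289727 to 751701, 1066590 to 1530724 and 673320 to 1604201. Alternatives covered scaling, pseudocount, filter, variance model, array weights, the replicate number as a block, fits of only 2 groups, the member rule and each library left out. Tables and figures used Python 3.11.15, pandas 2.3.3 and matplotlib 3.10.9.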

Additional observations from a re-analysis of the deposited data

Results flagged for a closer look

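For 7 members the change from uninjured tissue differed between the times, by the test of 21 d minus 48 h (limma, adjusted p under 0.05). These are the members of the comparison of both times given above, 16.3% of members beside 9.88% of all genes, with tnfsf18 and traf5 counted. The differences on the log2 scale were -4.57 for tnfrsf11b, -2.95 for tnfrsf11a, -1.20 for nfkbiaa and -1.08 for tnfrsf1a. They were 1.25 for nfkbiab, and 5.2 for traf5 and -5.71 for tnfsf18, both of which have a group at 0, so that these fitted values depend on the added 1 and are no measure of size. The filter on low values took in tnfsf18 only through its 48 h libraries, and traf5 only through its 21 d and uninjured libraries. The differences of tnfsf18 and traf5 are therefore descriptions.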

How the results depend on the processing

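Of 1491 values of 72 member results under the alternatives, 1439 kept their side of the threshold, 45 no longer passed and 7 passed newly. The sign changed in 0 values of results that had passed and in 29 values of 16 results that had not, such as relb and tnfrsf1b at 48 h and tnfrsf9a at 21 d against uninjured tissue. With no mean-variance trend, 3 members rose and 1 fell at 48 h, 0 and 0 passed at 21 d, and 1 was higher and 3 lower at 21 d than at 48 h. With a mean value of at least 50, where traf5 and tnfsf18 were not tested, 1 member fell at 48 h and 1 was higher at 21 d than at 48 h. With only the 2 groups in the fit, 1 was higher at 21 d than at 48 h. Leaving out 1 library gave 3 to 7 members higher and 2 to 2 lower at 48 h, 0 to 1 higher and 0 to 1 lower at 21 d, and 1 to 3 higher and 4 to 5 lower between the times. The cause of these shifts was not tested, and some of these fits held fewer genes or samples.

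Over all genes, no trend gave 294 higher and 390 lower at 48 h (main 794 and 1133), 11 and 33 at 21 d (93 and 167) and 253 and 199 between the times (980 and 788). Equal column totals moved the median of all genes by 0.27 at 48 h and by -0.24 between the times, where they gave 607 and 1281. Fitting 2 groups gave 153 and 274 at 21 d. Without 1 library the counts were 513 to 794 and 799 to 1122 at 48 h, 27 to 117 and 69 to 216 at 21 d, and 618 to 1042 and 490 to 816 between the times. Over all alternatives, pathway list genes numbered 0 to 3 higher and 1 to 3 lower at 48 h, and NF-kB responsive genes 5 to 15 and 2 to 5.

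Deviations of same-numbered libraries correlated between -0.02 and 0.03, and those of other numbers between -0.04 and 0.05. Same-numbered libraries thus showed no shared deviation over all genes. These values cannot tell whether such libraries were collected or processed together. With the replicate block 6 members rose at 48 h and 109 of 111 gene results kept their call, tnfrsf9a at 48 h and ptgs2a at 21 d being the exceptions. Values of 0 in at least 1 library were found for 13 members of low value, and the part of sequencing depth in them was not tested.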

Other observations

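Other genes of the NF-kB responsive list, picked after their values were seen, included the urokinase gene plaua. It had 637, 492 and 491 normalised read counts at 48 h, 43, 21 and 221 at 21 d and 10, 87 and 9 in uninjured tissue (log2 change 4.66 at 48 h, SE 0.87, limma adjusted p = 9.3e-04). The gelatinase mmp9 rose by 2.94 at 48 h (adjusted p = 0.0112), with 244, 1461 and 855 at 48 h and 92, 190 and 37 in uninjured tissue. It is also 1 of the neutrophil markers, of which 4 of 9 tested rose at 48 h. These markers summed to between 9123 and 10134 at 48 h, mostly from srgn and adam8a, and between 3199 and 5572 in uninjured tissue. Their part in the rise of mmp9 was not tested. The macrophage growth factor csf1a was lower at 48 h, at 29, 21 and 34, against 163, 221 and 165 in uninjured tissue (-2.68, adjusted p = 0.00475). The neutrophil-attracting chemokine cxcl8a, too low for the test, had 65, 0 and 73 at 48 h and was listed at 0 in all other libraries. The related cxcl8b.1, also too low, had 0, 51 and 6 at 48 h and 0, 0 and 12 in uninjured tissue. The related cxcl8b.3 had 0, 57 and 41 at 48 h, 55, 0 and 32 at 21 d and 16, 0 and 28 in uninjured tissue. It was tested and did not pass at 48 h (limma adjusted p = 0.866).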
